A study of Gallus gallus with 2 samples.

Results

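The segment described here is the stretch of chick chromosome 7 that lies beyond T-DOM, on the side of T-DOM away from HoxD. It runs from 14945 to 15920 kb (galGal5), is 975 kb long and holds 195 of the 585 bins of 5 kb that make up the captured region, which runs from 14945 to 17870 kb. Its outer limit is where the capture probes begin, and its inner limit was chosen from the domain borders of these same contact matrices, so the border at 15920 kb is a description and was not tested. All contacts inside the segment were measured, with those it made with the next 95 bins. These were 79 bins of T-DOM, from 15920 to 16315 kb, and 16 bins taken as the HoxD cluster, from 16315 to 16395 kb. The study's C-DOM interval starts past 16395 kb, so the cluster below means these 16 bins only. Chromatin contacts were measured by capture Hi-C (CHi-C), in which cross-linked and re-ligated DNA is enriched with probes for a chosen region before paired-end sequencing. Whole forelimb buds gave 1 library and whole hindlimb buds gave the other. Both came from wild type White Leghorn embryos at Hamburger-Hamilton stage 20 (HH20), and the buds of many embryos were pooled. The study asked whether chromatin folding around HoxD differs between fore- and hindlimb buds at this stage. With 1 library a limb, all tests below compare these 2 libraries, not the limbs, and their intervals cover counting error only.

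Vertebrate chromosomes fold into topologically associating domains (TADs), stretches whose loci meet each other more often than they meet loci outside. Many TAD borders carry bound CTCF, a zinc finger protein that halts cohesin, the ring complex that extrudes chromatin loops, and pairs of such sites often meet at the corners of domains. The HoxD cluster, whose genes encode transcription factors that pattern the limb, lies between a telomeric domain (T-DOM) and a centromeric domain (C-DOM), each of which holds limb enhancers. T-DOM itself holds few genes, and a run of genes that are no Hox genes lies beyond it.

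Gene positions on galGal5 were not analysed here, and genes were named by their order alone. In the RefSeq annotation of the GRCg7b assembly, the first genes met beyond T-DOM were HNRNPA3, which encodes an RNA-binding protein, NFE2L2, the transcription factor of the oxidative stress response, and AGPS, an enzyme of ether lipid synthesis in peroxisomes. TTC30B, whose product acts in transport along cilia, PDE11A, a cyclic nucleotide phosphodiesterase, RBM45, another RNA-binding protein, and OSBPL6, of the oxysterol-binding protein family, followed in that order. FKBP7, DFNB59, PLEKHA3, TTN (titin, the giant protein of the sarcomere) and CCDC141 came next. Which of these 12 genes fall inside the segment was not determined. The study's own list of elements placed a border interval named for Hnrnpa3 at the inner end of the segment, in the bins from 15890 to 15915 kb.

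The segment gave a similar share of captured read pairs in both limbs. Pairs with both ends inside it numbered 721311 of 3096681 (23.3%) in the forelimb library and 749521 of 3221107 (23.3%) in the hindlimb library. Pairs that joined it to T-DOM or HoxD numbered 228777 (7.39%, 95% exact Clopper-Pearson interval 7.36 to 7.42) and 236755 (7.35%, 7.32 to 7.38). The balanced matrices carried no value for 10 segment bins in forelimb and 9 in hindlimb, the longest such run being the 25 kb from 15070 to 15095 kb. The outer end needs care. In the first 75 kb of the captured region, balanced contact stood at 2.20 (forelimb) and 2.16 (hindlimb) times the mean for the same distance, and in the last 75 kb at the other end of the capture at 1.82 in both, whereas the raw counts there stood at 1.02 and 1.02, and at 1.25 and 1.20. Means over the large domain are given below with and without the outer 150 kb of the capture.

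By insulation with a 100-kb square, the segment held 1 border that was called in both libraries, and it split into a large outer domain and a small inner domain. Insulation was scored as the log2 ratio of the mean contact across a point, in a 100-kb square, to the mean of all points, and a border was a minimum at least 0.2 deep on that scale. The minimum lay at 15695 kb in forelimb, with a value of -0.52 and a depth of 0.87, and at 15690 kb in hindlimb, with a value of -0.49 and a depth of 0.90. The large domain thus ran over 150 bins from the capture edge to 15695 kb, and its true outer limit was not analysed here. The small domain ran over 45 bins (225 kb), from 15695 kb to T-DOM. The floor of the border was wide: points within 0.1 of its lowest mean value lay as far apart as 15610 and 15705 kb. The position of this border depended on the method, with 15630 kb for a 200-kb square and 15615 kb for raw counts. TopDom, the domain caller used in the study, placed it at 15610 kb. Both TopDom and raw counts also gave a border inside the large domain, at 15100 and 15095 kb. These lie at the end of the run of bins without a value, 15070 to 15095 kb, and TopDom as run here took missing values as 0. The part of that run in these calls was not tested. In forelimb alone TopDom called a further one at 15660 kb. Shallower minima inside the large domain, at 15115 kb (depth 0.18) and 15470 kb (0.15) in forelimb and at 15110 kb (0.20) and 15480 kb (0.18) in hindlimb, were not called in both.

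**Figure D1:**
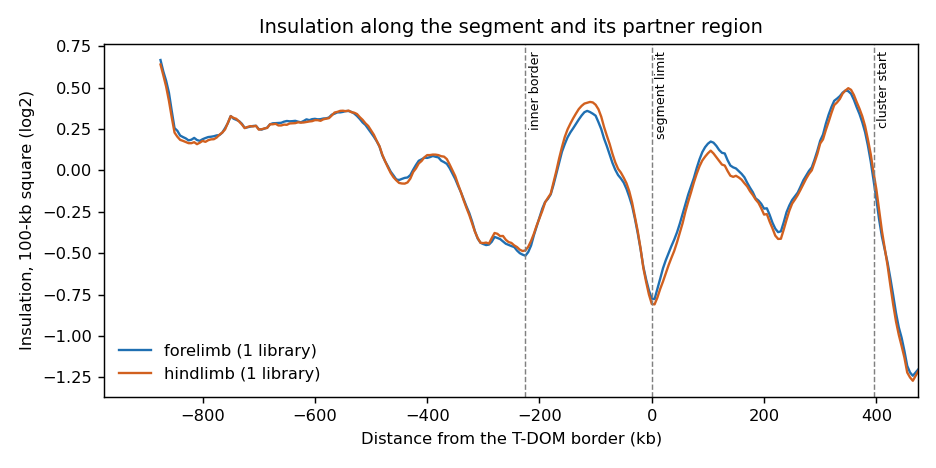
Insulation (log2, 100-kb square) of each library against the distance in kb from the segment's limit at T-DOM; lower values mean fewer contacts across a point. The curves of the forelimb and hindlimb libraries follow each other, with the inner border at -0.52 and -0.49 and the deeper minimum near the segment limit at -0.78 and -0.81.

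The limit of the segment at T-DOM was a sharper border than the inner one. Insulation was -0.725 (forelimb) and -0.750 (hindlimb) at 15915 kb, just inside the limit, and -0.777 and -0.809 at its minimum, 15925 kb, just outside. The last bin inside, 15915 to 15920 kb, stood at 1.19 (forelimb) and 1.26 (hindlimb) times the mean for distance with the small domain, and at 0.989 and 0.954 with T-DOM. The first bin outside, 15920 to 15925 kb, stood at 0.934 and 0.971 with the small domain and at 1.18 and 1.12 with T-DOM. The preference for one side or the other thus changed within 1 bin in both libraries. Along the segment the 2 insulation profiles differed by at most 0.08, at 15825 kb inside the small domain, where hindlimb was the higher, and the SD of their difference was 0.025.

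Distance-corrected contact of the 2 domains differed from partner to partner. The inner border was set from these same matrices. Lower contact between the 2 domains than inside them is thus in part given by that choice. Each balanced value was divided by the mean of all captured bin pairs at the same separation, so that 1 is the mean of the captured region. Inside the large domain the mean was 1.24 in forelimb and 1.22 in hindlimb, and 1.18 in both with the outer 150 kb left out. Inside the small domain it was 1.16 and 1.21. Between the 2 domains it was 0.716 and 0.692, or 0.669 and 0.643 without the outer 150 kb. The large domain was also below the mean with T-DOM, at 0.701 and 0.722 (0.658 and 0.677 without that edge). With the HoxD cluster it stood at 0.623 and 0.642 (0.591 and 0.606 without it). The small domain stood near the mean with T-DOM, at 0.973 and 0.970, and above it with the HoxD cluster, at 1.48 and 1.47. For comparison, T-DOM and the cluster it flanks stood at 1.38 and 1.37 with each other. These ratios refer to different separations and do not rank amounts of contact. Before distance correction, balanced contact with the cluster averaged 5.30 and 5.36 per 1000 contacts of a bin for T-DOM. For the small domain it averaged 2.28 and 2.19.

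**Figure D2:**
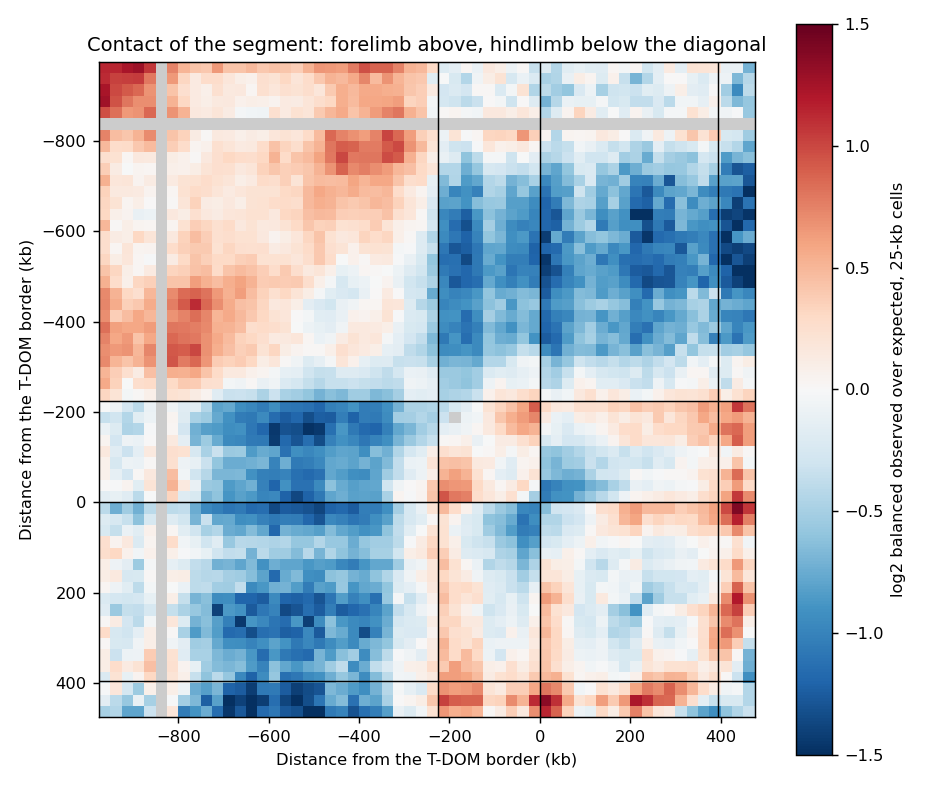
Balanced contact over the mean for the same distance (log2 colour scale, 25-kb cells) for the segment, T-DOM and HoxD, with forelimb above and hindlimb below the diagonal, axes in kb from the segment's limit at T-DOM, black lines at the inner border, that limit and the start of HoxD, and grey where bins carried no value. The blue block between the large domain and everything to its right (0.623 to 0.722 on average) fades before the inner border as drawn at 15695 kb. It also fades towards the capture edge, where the window from 15095 to 15120 kb stood at 1.06 (forelimb) and 1.03 (hindlimb) with T-DOM. The small domain is red with the HoxD cluster (1.48 and 1.47).

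By balanced values, the strongest large-domain contacts outside the outer 150 kb joined 15115 to 15160 kb with places between 15470 and 15585 kb. Contacts were ranked by the mean of both libraries over squares of 9 bin pairs, at least 50 kb apart. Of the 10 highest in the segment, 4 lay wholly within the outer 150 kb of the capture, where balanced values were raised as given above, and a further contact, of 14955 with 15530 kb, had its left end there. The contact of 15150 with 15585 kb, 435 kb apart, held 346 read pairs in forelimb and 335 in hindlimb where 193 and 194 were expected, and balanced values stood at 2.28 and 2.25 times the mean for distance. The contact of 15155 with 15470 kb held 430 and 482 pairs where 256 and 262 were expected, at 2.19 and 2.34 in balanced values. The contact of 15115 with 15585 kb, which rests on the 6 bin pairs that carried a value, held 167 and 154 pairs where 116 and 117 were expected, at 2.26 and 2.09. The contact of 15125 with 15470 kb held 268 and 265 pairs where 236 were expected in each, at 2.03 in the mean of both libraries. In raw counts these 4 contacts stood lower, at 1.76, 1.76, 1.38 and 1.13 times the mean for distance. They paired a stretch at 15115 to 15160 kb with places at 15470 and 15585 kb. Of these ends, those at 15115 and 15470 kb lay within 1 bin of a shallow minimum of insulation in forelimb. Those at 15125, 15150, 15155 and 15585 kb did not. With a 50-kb square, borders called in both libraries lay at 15155, 15465 and 15705 kb. The ends at 15150, 15155 and 15470 kb lay within 1 bin of one of these. Each stood at 1.16 to 1.34 times the ring of bin pairs 4 to 6 bins away, on a broad area of raised contact. None differed between the libraries beyond counting error, since the intervals of all 4 hindlimb over forelimb ratios included 0 on the log2 scale.

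By balanced values the small domain had 1 contact among the 10, and it joined the ends of that domain. The contact of 15700 with 15910 kb held 1066 pairs in forelimb and 1219 in hindlimb where 352 and 367 were expected from distance. Balanced values gave 2.03 and 2.20 times the mean, and 1.62 and 1.61 times the surrounding ring, a sharper summit than those of the large domain. In raw counts it was the highest of the whole segment, at 3.18 times the mean. Its right end is the last bin that the border interval named for Hnrnpa3 overlaps, in part, and its left end lies at the inner border. The hindlimb library was higher by 0.13 on the log2 scale (95% interval 0.01 to 0.25, not adjusted for the number of contacts looked at). When contacts were ranked by raw counts instead, those ranked 1 to 6 in the segment all lay in the small domain.

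All of the 5 strongest contacts of the segment with T-DOM or HoxD had their left end in the small domain and their right end in the HoxD cluster, in the 10 kb from 16360 to 16370 kb. That stretch lies between the end of Hoxd8 and the start of Hoxd11 in the intervals the study lists. The contact of 15915 with 16360 kb, which spans T-DOM from its outer border to HoxD, held 596 read pairs in forelimb and 602 in hindlimb where 186 and 189 were expected, and stood at 2.73 and 2.69. The contact of 15705 with 16365 kb, 660 kb apart and from the inner border, held 320 and 307 pairs where 108 and 106 were expected, and stood at 2.25 and 2.35. These 2 contacts stood at 1.59 to 1.70 times the surrounding ring. Contacts of 15775, 15745 and 15855 kb with the same stretch followed, at 2.10, 1.95 and 1.91 in forelimb and 2.12, 2.10 and 1.95 in hindlimb. The libraries could not be told apart at any of the 5, with hindlimb over forelimb between -0.04 and 0.06 on the log2 scale and every interval including 0.

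Contact with the HoxD cluster rose before the inner border as called at 15695 kb and was highest just past it. It was uneven across the small domain. TopDom, raw counts and the 200-kb square placed that border at 15610, 15615 and 15630 kb, within the stretch of the rise. In windows of 25 kb, the 29 windows of the large domain that could be measured had a median of 0.550 in forelimb and 0.565 in hindlimb, with the lowest at 0.368 and 0.360, and the 24 of them outside the outer 150 kb had medians of 0.512 and 0.544. Towards the border, values rose from 0.516 and 0.556 at 15545 to 15570 kb to 0.997 and 0.960 at 15595 to 15620 kb. The window next to the border, 15670 to 15695 kb, was the highest of the large domain at 1.18 and 1.24. Across the border, the window from 15695 to 15720 kb held 2094 pairs in forelimb and 1977 in hindlimb and stood at 1.78 and 1.75, the highest of the segment. Values were 1.03 and 1.12 at 15795 to 15820 kb, in the middle of the small domain, and 1.72 and 1.73 in its last window, 15895 to 15920 kb. All 9 windows of the small domain were thus at or above the mean for their distance, and its ends met HoxD more than its middle. With T-DOM the same 9 windows showed another shape: 1.27 and 1.31 at the inner border, and 0.884 and 0.876 in the window that adjoins T-DOM.

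**Figure D3:**
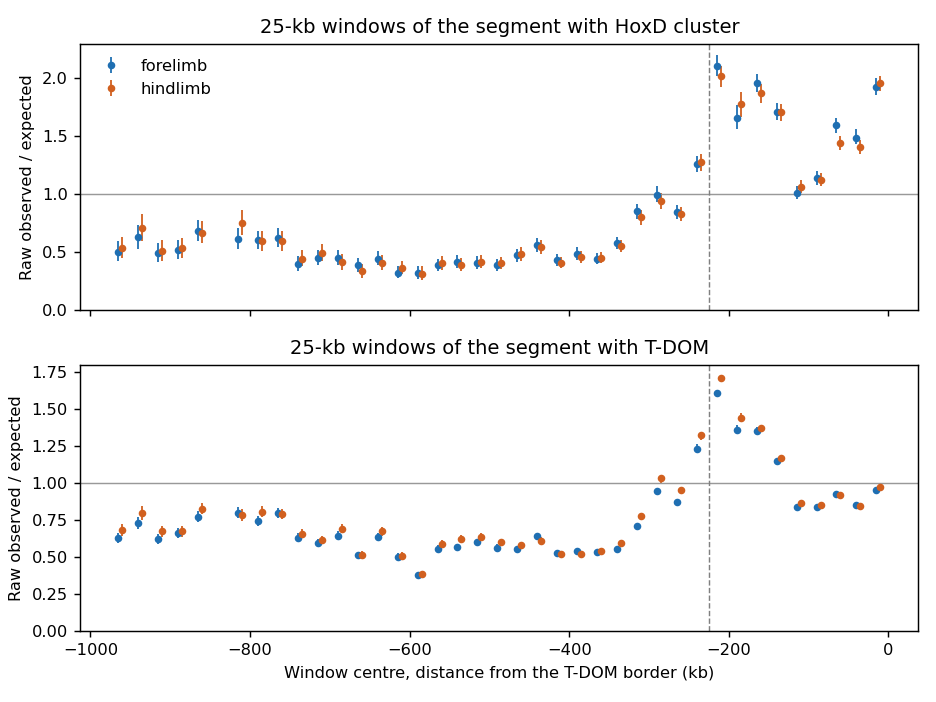
Raw read pairs over the number expected from distance (vertical axis, no unit) of each 25-kb window of the segment with the HoxD cluster (top) and with T-DOM (bottom), against the window's distance in kb from the T-DOM border; bars are 95% exact Poisson intervals and the dashed line is the inner border. In raw counts the first window past the inner border reached 2.11 (forelimb) and 2.02 (hindlimb) with the cluster.

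Within the cluster, the contacts of the small domain peaked in its middle. Seen from the small domain, the bin at its Hoxd1 side, 16315 to 16320 kb, stood at 1.29 in forelimb and 1.37 in hindlimb. The bin from 16360 to 16365 kb, between Hoxd8 and Hoxd11, was the highest at 1.81 and 1.84. It held 940 and 941 pairs, against 1423 and 1433 in the next bin, which stood at 1.75 and 1.82. The last bin, 16390 to 16395 kb, at the Hoxd13 side, stood at 1.07 and 0.958. Seen from the large domain all 16 bins were below the mean. Values went from 0.747 (forelimb) and 0.749 (hindlimb) at the Hoxd1 side to 0.516 and 0.551 at the Hoxd13 side. In hindlimb the bin from 16330 to 16335 kb stood at 0.744 (503 pairs), against 0.580 in forelimb (464 pairs). The bin before it, 16325 to 16330 kb, held 513 pairs in hindlimb and 481 in forelimb. In both libraries a local rise smaller than that of the small domain lay in the middle of the cluster. There, values went from 0.574 and 0.601 at 16350 to 16355 kb up to 0.675 (forelimb, 16370 to 16375 kb) and 0.682 (hindlimb, 16365 to 16370 kb). Without the outer 150 kb the bins lay between 0.489 and 0.687 in forelimb and between 0.482 and 0.675 in hindlimb. Neither the hindlimb value at 16330 kb nor those at the Hoxd1 side thus stayed as high as given above.

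**Figure D4:**
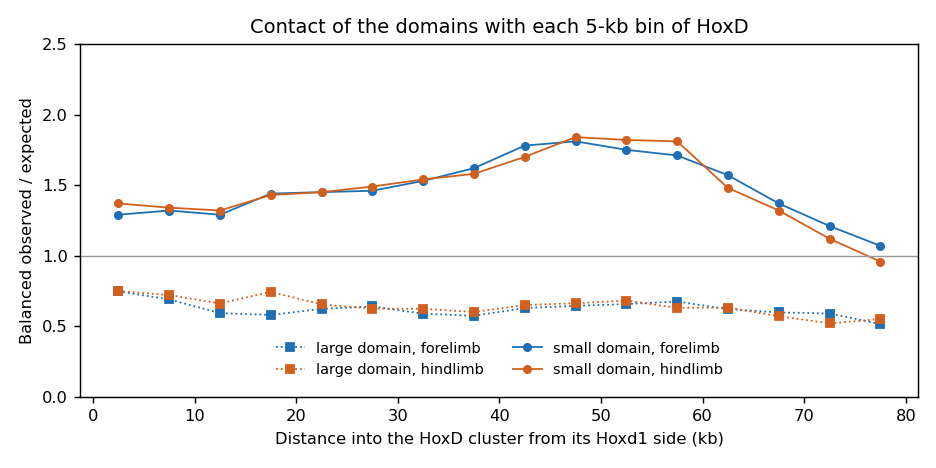
Mean balanced contact over the mean for distance (vertical axis, no unit) of the large domain (squares) and the small domain (circles) with each 5-kb bin of HoxD, in kb from the Hoxd1 side of the cluster. The small domain peaks at 1.81 (forelimb) and 1.84 (hindlimb) and the large domain stays under 0.75 in both libraries.

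The study's named elements in the segment all lie in the last 35 kb before T-DOM. The bins of the border interval named for Hnrnpa3 held 3011 pairs with the HoxD cluster in forelimb and 3100 in hindlimb, at 1.63 and 1.66 times the mean for distance. They stood at 1.28 and 1.32 with the small domain and at 0.845 and 0.838 with T-DOM. CS75, a conserved sequence in the bin from 15915 to 15920 kb, stood at 1.80 and 1.69 with the cluster, with 698 and 680 pairs. CS18 and CS19, conserved sequences in the bins from 15885 to 15895 kb, stood between 1.30 and 1.37 with it. For none of the 4 did contact with the cluster differ between libraries beyond counting error, the log2 ratios lying between -0.05 and 0.03. CS75 met the small domain with 3797 forelimb and 4386 hindlimb pairs, a log2 ratio of 0.11 (95% interval 0.05 to 0.17, not adjusted).

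Differences between the limbs were small throughout the segment. Raw pairs of each domain were compared with the share expected from separation by an exact binomial test, with Benjamini-Hochberg adjustment over 7 domain pairs. Inside the large domain forelimb held 451329 pairs and hindlimb 460296, a log2 ratio of hindlimb over forelimb of -0.05 (95% interval -0.06 to -0.05, exact adjusted p = 1.08e-66), so that hindlimb fell by 3.57% against the number expected from distance, and the log2 ratio was also -0.05 without the outer 150 kb. Inside the small domain forelimb held 94374 pairs and hindlimb 105036, a log2 ratio of 0.04 (0.03 to 0.06, exact adjusted p = 1.35e-11). The signs were the same in each of the 4 sequencing lanes of these libraries, with ratios from -0.06 to -0.04 and from 0.02 to 0.06. In the fourth lane alone the small domain did not pass (exact binomial p = 0.264). Lanes split the pairs of the same library and are not replicates. In balanced values the ratio was -0.02 for the large and 0.05 for the small domain. The median coverage of a bin, scaled to the library total, was lower in hindlimb by a log2 ratio of -0.04 in the large domain and differed by 0.01 in the small domain and by 0.06 in T-DOM, and its part in these differences was not tested.

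Contacts between the domains shifted a little as well. The 2 domains met less in hindlimb, with 96851 forelimb and 95099 hindlimb pairs, a log2 ratio of -0.06 (exact adjusted p = 1.92e-18) that was -0.05 in balanced values. After distance correction the large domain met T-DOM more in hindlimb, with 82902 and 85597 pairs. The log2 ratio was 0.07 (exact binomial test, adjusted p = 6.14e-26) and 0.04 in balanced values. Without that correction hindlimb was slightly the lower: balanced contact averaged 0.737 in forelimb and 0.725 in hindlimb per 1000 contacts of a bin. The small domain with T-DOM gave 115667 and 121879 pairs and a ratio of 0.03 (exact adjusted p = 1.59e-05), which was -0.01 in balanced values and so kept no direction. Of segment pairs with both ends in the segment, 84.93% in forelimb and 85.60% in hindlimb stayed within 1 domain, 0.67 percentage points more in hindlimb (Fisher's exact test, p = 2.22e-27). This share was not corrected for distance: it differed by 0.14 points (Fisher's exact test, p = 0.00978) among pairs under 200 kb apart, and by 1.69 points (Fisher's exact test, p = 3.78e-105) with the TopDom borders. Of all pairs inside the segment or from it to T-DOM and HoxD, again without distance correction, 25.98% and 26.12% crossed the T-DOM border, 0.14 points more in hindlimb (Fisher's exact test, p = 0.0336). That second difference turned to -0.52 points in balanced values and to -0.10 points (Fisher's exact test, p = 0.140) without the 50 kb on either side of the border.

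After distance correction, contact of the whole segment with the HoxD cluster did not differ detectably between the libraries. The segment as a whole gave 26921 forelimb and 25986 hindlimb pairs with the cluster, a log2 ratio of 0.00 after distance correction (95% interval -0.03 to 0.02). The exact binomial test gave p = 0.751, and a Wilcoxon signed-rank test over 2960 balanced bin pairs, which stood at 0.822 and 0.836 times the mean for distance, gave p = 0.435. Without correction for distance, the ratio was -0.11 against the captured total (exact binomial p = 8.45e-18) and -0.07 in balanced values (Wilcoxon p = 5.39e-10). Neighbouring bin pairs are not independent, so both Wilcoxon p-values measure neither counting error nor variation between embryos. The large domain gave -0.01 (9003 and 8465 pairs, exact adjusted p = 0.774) and the small domain -0.03 (17918 and 17521 pairs, exact adjusted p = 0.0397), a difference that was -0.01 in balanced values. Of the windows of 25 kb, 1 of 38 had an interval away from 0: the window from 15845 to 15870 kb in the small domain, with 2285 pairs in forelimb and 2069 in hindlimb (-0.15, 95% interval -0.24 to -0.06, not adjusted).

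Blocks of 25 by 25 kb gave differences at finer scale. In the captured region 30 of 6527 blocks (0.460%) passed an adjusted p of 0.05, with 23 (0.352%) higher and 7 (0.107%) lower in hindlimb. Inside the segment 2 of 737 blocks passed (0.271%), 1 in each direction, and between the segment and T-DOM or HoxD 6 of 720 passed (0.833%), 5 of them higher in hindlimb. These shares lie on either side of that of the whole captured region. A block inside the segment held a median of 618 pairs in forelimb and 604 in hindlimb. The median log2 ratio was -0.06 inside the segment and 0.04 with T-DOM and HoxD, against 0.00 over all blocks, and in balanced values it was -0.02, 0.03 and 0.00.

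Of the 8 called blocks, 6 were higher in hindlimb. The block that joins 15745 to 15770 kb with 15895 to 15920 kb, inside the small domain, held 2260 pairs in forelimb and 2859 in hindlimb, 20.0% more than expected (log2 ratio 0.26, 95% interval 0.18 to 0.34, exact binomial test, adjusted p = 6.09e-07). It was higher in each of the 4 lanes, by 0.18 to 0.33, and balanced values gave 0.23. The border interval named for Hnrnpa3 covers most of its right end. All 5 of the blocks that were higher in hindlimb across the T-DOM border joined 15645 to 15720 kb, on both sides of the inner border, with the first 75 kb of T-DOM. The 3 highest of them were 15645 to 15670 with 15920 to 15945 kb (609 and 783 pairs, log2 ratio 0.32, exact adjusted p = 0.0169), 15645 to 15670 with 15945 to 15970 kb (514 and 657 pairs, 0.31, exact adjusted p = 0.0498), and 15670 to 15695 with 15920 to 15945 kb (1030 and 1286 pairs, 0.27, exact adjusted p = 0.00418). The block of 15695 to 15720 with 15920 to 15945 kb held the most pairs, 1558 and 1905 (0.24, exact adjusted p = 0.00171). All 5 were higher in each of the 4 lanes, and each was between 0.18 and 0.30 in balanced values. The blocks were called on all lanes together, so like signs across lanes are not independent support.

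Only 2 of the called blocks of the segment were lower in hindlimb. Inside the large domain, 15195 to 15220 with 15395 to 15420 kb held 1337 pairs in forelimb and 1202 in hindlimb (log2 ratio -0.21, exact adjusted p = 0.0498), with lanes from -0.34 to -0.03 and -0.14 in balanced values. With separations taken from the segment and its partner region alone it did not pass (exact adjusted p = 0.0502), while the other 7 called blocks did. Between the large domain and T-DOM, 15470 to 15495 with 16045 to 16070 kb held 270 and 187 pairs (-0.52, 95% interval -0.80 to -0.25, exact adjusted p = 0.0414), with lanes from -0.74 to -0.16 and -0.49 in balanced values. The former passed the threshold narrowly, as did 2 of the blocks that were higher.

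**Figure D5:**
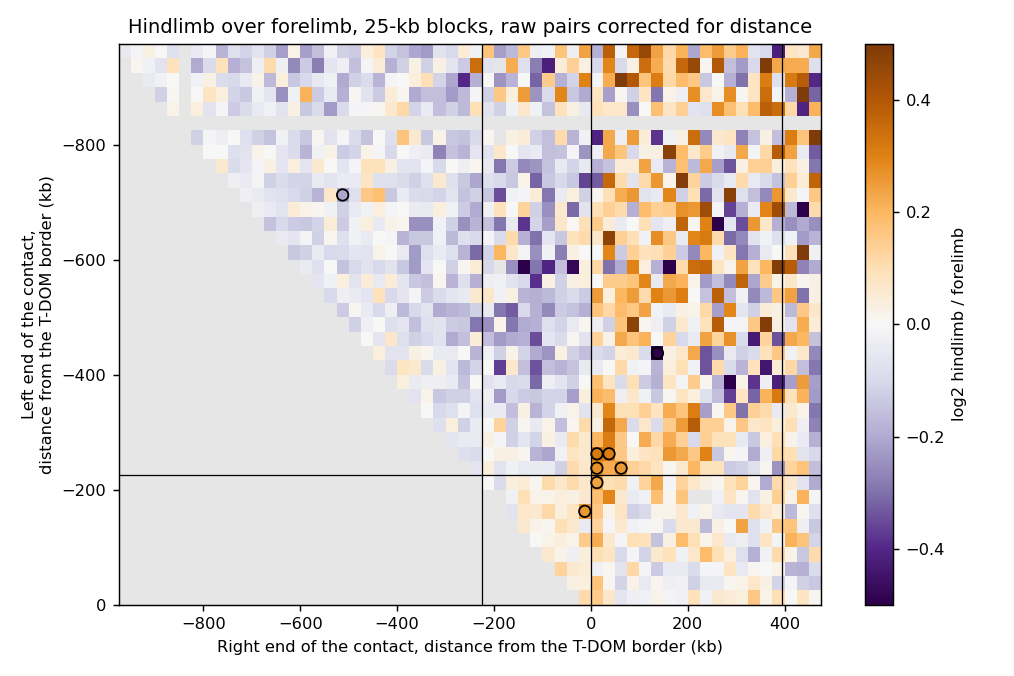
Log2 ratio of hindlimb over forelimb read pairs, corrected for distance, in 25-kb blocks of the segment (vertical axis) with the segment, T-DOM and HoxD (horizontal axis), in kb from the T-DOM border; circles mark the 8 blocks with an adjusted p under 0.05 and lines the inner border, the T-DOM border and the start of HoxD. The 6 circled blocks that are higher in hindlimb (0.24 to 0.32) have their ends between 15645 and 15995 kb.

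Larger blocks held more counts and passed more often. Of the blocks of 75 by 75 kb, 133 of 775 in the captured region passed (17.2%), with 8.65% higher and 8.52% lower in hindlimb. Inside the segment 31 of 90 passed, 28 of them lower (-0.19 to 0.02 in balanced values), and with T-DOM and HoxD 12 of 78 passed, 11 of them higher. Without the outer 150 kb these were 25 of 66 (22 lower) and 11 of 66 (10 higher). The block of 15620 to 15695 with 15920 to 15995 kb stood out with 6022 forelimb and 7328 hindlimb pairs, a log2 ratio of 0.25 (95% interval 0.20 to 0.30, exact adjusted p = 2.98e-20) that was 0.23 in balanced values. The 3 blocks inside the segment that were higher in hindlimb all lay in the small domain, at 0.05 to 0.09. The strongest of the lower ones, 15320 to 15395 with 15770 to 15845 kb, joined the 2 domains with 2163 and 1889 pairs (-0.21, exact adjusted p = 1.10e-04) and was -0.19 in balanced values.

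The libraries also differed with distance. Balanced contact inside the segment, per 1000 contacts of a bin, averaged 20.4 (forelimb) against 22.1 (hindlimb) at 10 to 20 kb, which is 0.12 on the log2 scale. At 640 to 980 kb it averaged 0.951 against 0.862, which is -0.14. In the rest of the captured region the ratios at these distances were 0.12 and -0.08. Hindlimb was thus the higher at short range and the lower at long range in both. The ratios of domains, windows and blocks above were corrected for distance unless stated, and the insulation values and shares were not.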

How the data were processed

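Contacts were measured by CHi-C in 1 forelimb and 1 hindlimb library of chick at HH20, grouped by the tissue in their labels. The authors mapped read pairs to galGal5 with HiCUP and Bowtie2, discarded pairs with a mapping quality of 30 or less at either end, took those with both ends in the captured region, and binned them with cooler. In the deposited raw matrices (5 and 10 kb) values are read counts. The deposited balanced matrices hold a signal in which the authors equalised the coverage of all unmasked bins. The deposited pair lists give mapping quality as a score and were used here only to count the 4 lanes (both qualities at least 30); their sums differed from the deposited matrix in 327 bin pairs of each library. The chromosome 2 matrices were not used here.

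Members and lists were chosen with earlier results of these data known. Bin pairs at least 2 bins apart and unmasked in both libraries were used. Expected values were means at the same separation over the captured region. Insulation, TopDom (window of 28 bins of 10 kb) and exact tests were run in Python 3.11.15 with numpy and scipy, after tests on simulated data. The exact tests take read pairs as independent. The Wilcoxon tests take bin pairs as independent, which neighbouring bin pairs are not. Named regions were borders called in both libraries (within 2 bins), the domains between them, the 10 and 5 strongest contacts (none within 25 kb of a higher one), up to 3 highest and 3 lowest called blocks inside and with T-DOM or HoxD, and the study's listed elements. The block of 15695 kb with the most pairs, the window at 15845 kb and the 75-kb blocks were singled out after their values were seen. Gene order came from the RefSeq table of GRCg7b.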

Additional observations from a re-analysis of the deposited data

How the results depend on the processing

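No paired analysis was possible because each limb has 1 library. The number of borders inside the segment, 1, was 3 with a 50-kb square or with a depth of 0.1, and 2 with raw counts or TopDom. The difference in the share of pairs that cross the T-DOM border, 0.14 points, reversed to -0.06 with all bin pairs, -0.52 in balanced values and -0.10 without the 50 kb on either side. Called blocks inside the segment and with T-DOM or HoxD, 2 and 6, were 31 and 12 in 75-kb blocks, 1 and 10 with separations taken from the segment and its partner region alone, 21 and 12 against the captured total, and 14 and 78 past a balanced log2 ratio of 0.3 (with no test). Larger blocks hold more pairs each; the causes of the other shifts were not tested. The log2 ratio inside the large domain, -0.05, was -0.02 in balanced values, and that inside the small domain, 0.04, was 0.02 in the fourth lane alone. Contact with the HoxD cluster, 0.00, was 0.02 in balanced values over expected, -0.11 against the captured total and -0.07 in balanced values. Of the 10 strongest contacts inside the segment, 6 were found again with local separations, 2 in raw counts and 5 without the outer 150 kb. Single lanes and that edge were chosen after seeing the data. Of 52 alternatives, 29 kept the direction and the call or a similar count; for the 200-kb square that is a count of 1 with the border at 15630 kb. The difference in the share within 1 domain, 0.67 points, was 0.14 under 200 kb and 1.69 with TopDom borders. A block far from the diagonal holds few pairs (a median of 159 with T-DOM and HoxD), so that only large differences there could pass.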
